A study of Mus musculus with 15 samples.

Results

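Expression in mouse mammary epithelial cells that carried a knockout of the leukemia inhibitory factor receptor (LIFR) on top of a knockdown of PCBP1 was compared with expression in cells that carried the knockdown alone. The comparison took 7 of the 15 RNA-Seq samples of the series, namely 3 LIFR KO clones and 4 shPCBP1 lines, and covered 12594 of the 13893 genes listed, those that averaged 0.5 CPM or more over these 7 samples. CPM is the count of a gene scaled to a library of 1000000 reads. All lines derive from NMuMG, an epithelial cell line from normal mouse mammary gland. The study asked which genes depend on FAM3C, a secreted ligand that PCBP1 holds back at the level of translation, and on LIFR. The 4 shPCBP1 lines (genotype wild type, shRNA knockdown of PCBP1) were the unaltered line and CT clones 1 to 3, which had received Cas9 without a gene-specific guide. The LIFR KO clones (genotype LIFR -/-) carried the same knockdown, so every sample of the comparison lacked most PCBP1 and only LIFR was targeted between the groups. Each KO clone was grown from a colony after serial dilution, and each line gave 1 RNA sample, so the spread between samples is a spread between lines. FAM3C KO clones 1 to 3 (FAM3C -/-), a single FAM3C/LIFR double KO and a second dataset of 2 shPCBP1 and 2 NMuMG samples (labelled as untreated, and called shSCR in the paper) were used for comparison only.

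LIFR is the signalling chain for LIF and several related cytokines. It pairs with gp130 (gene Il6st), and the associated JAK kinases then phosphorylate STAT3, which induces its own inhibitor Socs3 among other genes. In mammary epithelium this pathway is best known for its part in involution after lactation, and in tumours it has been tied both to dormancy and to invasion. PCBP1 is an RNA-binding protein that represses the translation of a set of mRNAs linked to epithelial-mesenchymal transition (EMT), FAM3C among them.

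The guides define what was removed, and they are shown here because the knockout is a small excision that leaves most of the gene in place. The study designed 4 guides against Lifr (chromosome 15 of GRCm38, 7090614 to 7197489, plus strand), a pair in exon 2 and a pair in exon 6, and 3 of the 4 matched the 20-exon transcript ENSMUST00000067190.11 within its coding sequence. The guides are written 5′ to 3′ with the NGG motif that Cas9 needs in capitals.
exon 2 guide 1: ttattgtctaccatccacgaTGG
exon 2 guide 2: catctgacgatgcatgcaaaCGG
exon 6 guide 1: gtaaagataccgttcagcacTGG
exon 6 guide 2: tacagacccttggttcacatGGG
Exon 2 guide 1 lies at 7154439 to 7154458 on the minus strand and exon 2 guide 2 at 7154514 to 7154533 on the plus strand. Their expected cuts, 3 bases from the motif, are 89 bases apart within exon 2 (7154387 to 7154547). Exon 6 guide 1 lies at 7166908 to 7166927 on the plus strand, within exon 6 (7166883 to 7167057). Exon 6 guide 2, which is listed with its NGG, had no match in the Lifr transcripts of GENCODE M21. The labels do not say which pair made which clone.

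Per the paper's methods, KO candidates were screened by PCR around or inside the excision, and those that were positive by immunoblot for the protein. Lifr mRNA was measured over the whole gene, so its level does not check an excision of this size. LIFR KO clones 1 to 3 held 34.9, 29.3 and 14.6 CPM of it, the unaltered line 28.4 CPM and CT clones 1 to 3 25.8, 34.8 and 40.2 CPM. Clones 1 and 2 lay inside the control range and clone 3 below it (log2 fold change -0.37, adjusted p = 0.4, limma). The FAM3C KO clones, in which Lifr was not targeted, held 13.5, 10.5 and 19.2 CPM of Lifr, a range that includes clone 3. The double KO held 4.36 CPM. Pcbp1, the gene targeted in every line, was at 39.5, 22.5 and 19.9 CPM in the LIFR KO clones and at 32.9 to 37.1 CPM in the shPCBP1 lines. In the second dataset it was at 287 and 312 CPM without the knockdown and at 14.1 and 14.2 CPM in its presence. LIFR KO clones 2 and 3 gave libraries that stood apart in base composition, with Spearman correlations of -0.76 and -0.75 across genes between the deviation from the shPCBP1 mean and the GC content of the gene, against 0.07 in clone 1 and -0.29 to 0.24 in the shPCBP1 lines. The comparison with shPCBP1 was therefore made on the deposited scale and again after a loess correction for GC content, and calls that differ between the scales are pointed out. Of 10 epithelial markers, 6 were listed, and their summed level was 1210 to 2100 CPM in LIFR KO and 2470 to 3170 CPM in shPCBP1. Krt8, Krt18 and Krt19 made up most of that sum, while Cdh1 was at 268 to 344 CPM and 292 to 346 CPM in the same order. Vim, Fn1 and other mesenchymal or fibroblast markers summed to 1150 to 1800 CPM and 1680 to 1910 CPM. Immune markers summed to 4.46 to 10.9 CPM in LIFR KO and 8.49 to 10.1 CPM in shPCBP1, and 4 of those 6 markers, Ptprc among them, were not listed.

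The 3 LIFR KO clones did not behave as 3 equal replicates along the chromosomes. Tested genes were taken in order along each chromosome in 238 windows of about 50 genes, and the median GC-corrected log2 difference from the shPCBP1 lines was read in each window. On the distal part of chromosome 15 (58022259 to 103366763 of GRCm38, 366 genes), clones 1 and 2 stood at -0.45 and -0.43, and clone 3 at 0.03. The shPCBP1 lines stood between -0.15 and 0.08 there. On distal chromosome 19 (11443553 to 61176309, 247 genes), clones 1 and 2 stood at 0.49 and 0.48, clone 3 at -0.04 and the shPCBP1 lines at -0.06 to 0.14. The start of chromosome 15, where Lifr lies, showed no such shift (0.12, 0.05 and 0.06 in clones 1 to 3, 106 genes).

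Clone 3 had another set of shifted segments, and these were not particular to it. In the last window of chromosome 4 it stood at 0.82, on chromosome 8 between 78505269 and 104631327 at -0.49, and on distal chromosome 17 at 0.4. Clones 1 and 2 lay between -0.11 and 0.06 on all 3 segments. The FAM3C KO clones stood at 0.86 to 0.92, -0.54 to -0.5 and 0.37 to 0.43 on the same segments, and the double KO at 0.85, -0.52 and 0.39. The unaltered shPCBP1 line stood at 0.37, -0.26 and 0.11. On chromosomes 4 and 8 it lay between clone 3 and the CT clones, and on chromosome 17 close to the highest CT clone (0.1). A control clone had a shifted window too. In the last window of chromosome 10 CT clone 2 stood at 0.458, and LIFR KO clones 1 to 3 at -0.115, -0.139 and -0.055. The segments were picked after their values were seen, and no DNA was measured.

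**Figure D1:**
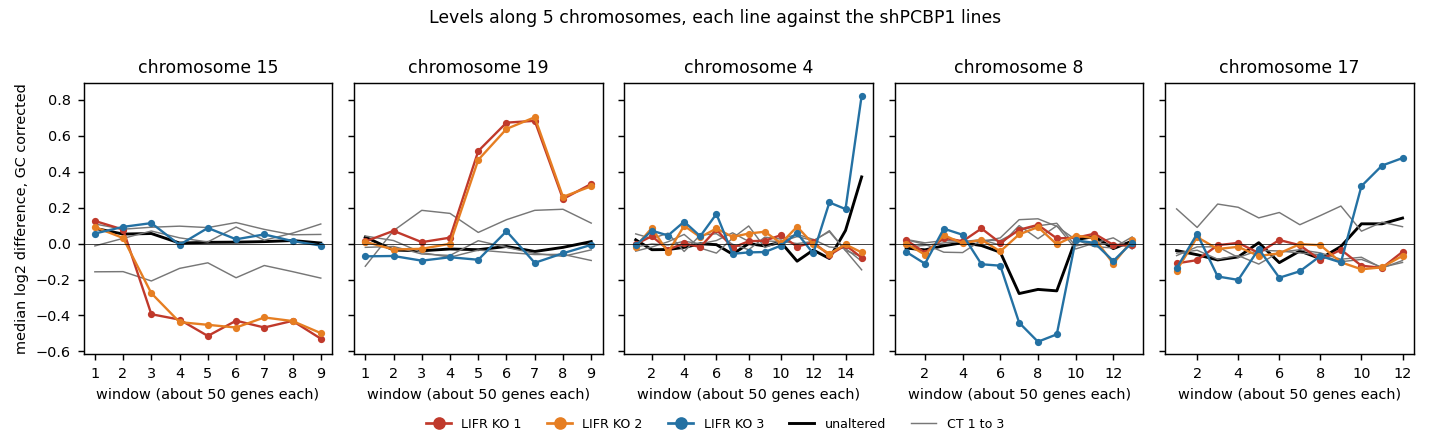
Median GC-corrected log2 difference from the shPCBP1 lines (each shPCBP1 line against the other 3) in consecutive windows of about 50 tested genes, for chromosomes 15, 19, 4, 8 and 17. LIFR KO clones 1 and 2 follow each other on chromosomes 15 and 19, and clone 3 departs from them on chromosomes 4, 8 and 17. The unaltered line lies between clone 3 and the CT clones at the end of chromosome 4 and in the middle of chromosome 8.

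Single genes divided the clones in the same way. Among 11843 genes that reached 1 CPM on average over the 11 lines of the first dataset, LIFR KO clones 1 and 2 differed at least 4-fold after GC correction at 66 genes. Clone 3 differed from them at 262 and 226 genes, but from FAM3C KO clone 1 at 59 and from the double KO at 90. Pairs of shPCBP1 lines differed at 51 to 87 genes, so by this count clones 1 and 2 lay no farther apart than those did. By the median absolute log2 difference over the same genes they lay slightly farther apart (0.156, against 0.105 to 0.145 for pairs of shPCBP1 lines). How the clones were related is not given in the sources used here. A gene that differed from the lines in clone 1, clone 2 and clone 3 did so in both of these profiles, and such genes are given first in what follows. Limma treated the 3 clones as independent samples. When clones 1 and 2 were averaged into 1 sample on the GC-corrected scale, 7 genes passed the threshold. Only 5 of these were among the genes that passed on the deposited scale with 3 independent clones, so most of the calls below rest on that independence or on the scale.

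**Figure D2:**
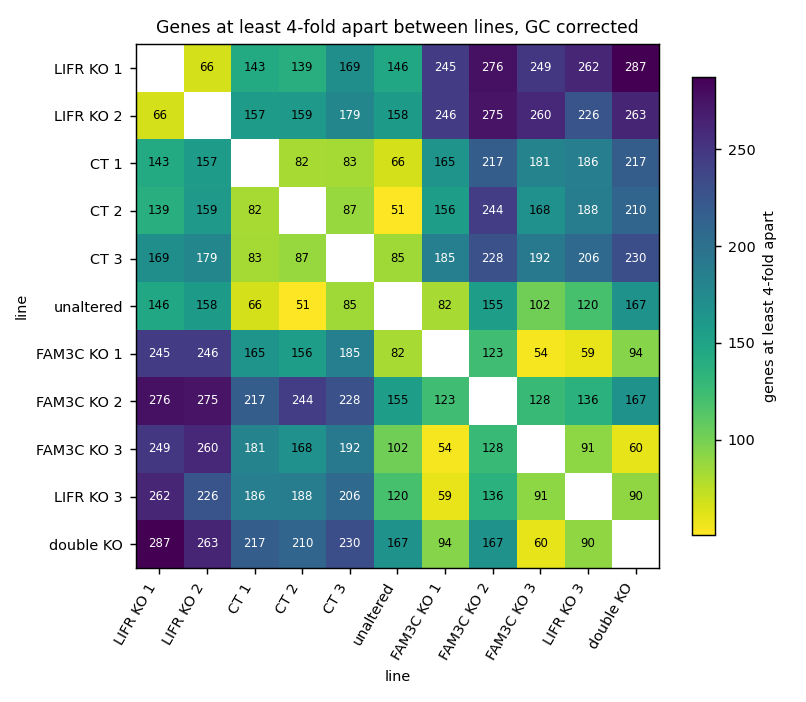
Number of genes that differ at least 4-fold between each pair of the 11 lines, after GC correction, over 11843 genes. LIFR KO clones 1 and 2 are 66 genes apart, LIFR KO clone 3 is 59 genes from FAM3C KO clone 1 and 262 from LIFR KO clone 1.

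Against the 4 shPCBP1 lines, 34 genes were lower in LIFR KO and 1 was higher at an adjusted p under 0.07 (limma), which makes 35 of 12594. This is 0.278% of the genes tested (0.27% for lower alone). After GC correction 25 of 12576 genes passed, 20 lower and 5 higher (0.199%), and 18 passed on both scales. The lower genes included the transcription factors Hoxc6, Ebf1 and Foxf1, the sulfotransferases Chst11 and Chst1, the surface antigen gene Ly6a and Cyp26b1, whose enzyme breaks down retinoic acid. Of the 35, 9 lay on distal chromosome 15, where clones 1 and 2 but not clone 3 were low as a whole. Counted without a test, all 3 clones lay below all 4 lines for 1661 genes (13.2%) and above for 500 (3.97%). The GC correction made this 824 below and 785 above, and quantile normalization 979 below and 1190 above. On both scales together, 589 genes lay below (4.68%) and 242 above (1.92%), and 77 of the 377 genes of distal chromosome 15 were among those below (20.4%), with 30 of 257 on distal chromosome 19 among those above (11.7%). In clone 1 taken alone no gene passed (957 at an unadjusted p under 0.05, limma), and without LIFR KO clone 1 the count was 6920. Leaving out an shPCBP1 line brought it to between 4 and 14 genes, without CT clone 2 or CT clone 3 to 4.

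Transcription factors that pattern the embryo were the list with the most members lower in LIFR KO. Of 50 tested, 6 passed as lower and none as higher, Hoxc4, Hoxc5, Hoxc6, Ebf1 and Foxf1 among them, and 4 passed after GC correction. All 3 clones lay below all 4 lines on both scales for 10 of the 50 (20%), against 4.68% of all tested genes. The median log2 fold change of the list was -0.682, against -0.163 over all genes, and -0.267 after GC correction. The list was put together with earlier results of these data known, and Hoxc6 was among those results.

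Hoxc6 (ENSMUSG00000001661, chromosome 15 of GRCm38, 102998257 to 103011881, plus strand) encodes a homeodomain factor of trunk and mammary gland development. Its level was 0.268, 0.166 and 0.214 CPM in the LIFR KO clones, 3.74 CPM in the unaltered line, and 7.95, 6.14 and 9.69 CPM in the CT clones (log2 fold change -4.39 ± 0.343 SE, adjusted p = 0.0053, limma). The groups did not overlap, and the 3 clones differed little from each other. Its neighbours Hoxc5 (102967443 to 103017429) and Hoxc4 (103018934 to 103036852) were also low. Hoxc5 was at 0.0536, 0.0416 and 0.0858 CPM in the clones and 1.17 to 3.81 CPM in the lines (adjusted p = 0.0257, and 0.0365 after GC correction), and Hoxc4 at 0.0536 to 0.0858 CPM and 0.97 to 5.01 CPM (adjusted p = 0.0605), a call that was lost after GC correction (0.122). The gene models of Hoxc5 and Hoxc6 overlap, so reads may have been split between them. All 3 lie on distal chromosome 15, where clone 3 showed no general shift (0.03) and yet had as little of all 3 as clones 1 and 2.

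Ebf1 (chromosome 11, 44617317 to 45008091) is a factor of B cell, adipocyte and stromal cell development. Ebf1 was at the lowest value of the library in clones 1 and 3 (0.0536 and 0.0429 CPM) and at 0.0832 CPM in clone 2. The shPCBP1 lines held 1.93 CPM (unaltered), 10.6, 7.96 and 13.3 CPM (log2 fold change -5.45 ± 0.6 SE, adjusted p = 0.0231, limma, and 0.0271 after GC correction). Foxf1 (chromosome 8, 121084386 to 121088144), a mesenchymal factor downstream of hedgehog signalling, was at 0.161, 0.0832 and 0.129 CPM against 2.56, 3.48, 9.05 and 12.9 CPM (adjusted p = 0.025, and 0.0365 after GC correction). Both genes were at or near the lowest value of the library in every clone, and their spread lay almost wholly among the controls. Lhx2 was at 0.59, 0.416 and 0.0429 CPM against 2.67 to 4.97 CPM and did not pass (adjusted p = 0.0729). Maf, a bZIP factor outside the list, fell from 16 to 22.2 CPM in the lines to 4.83, 8.19 and 3.58 CPM (log2 fold change -1.82 ± 0.274 SE, adjusted p = 0.0605, and 0.0771 after GC correction). Scx, which marks tendon progenitors, was at 44, 17.2 and 24.1 CPM against 72.9 to 80.4 CPM, and passed only after GC correction (adjusted p = 0.0392). Scx lies on distal chromosome 15, but clone 3, without that shift, was also below every line.

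**Figure D3:**
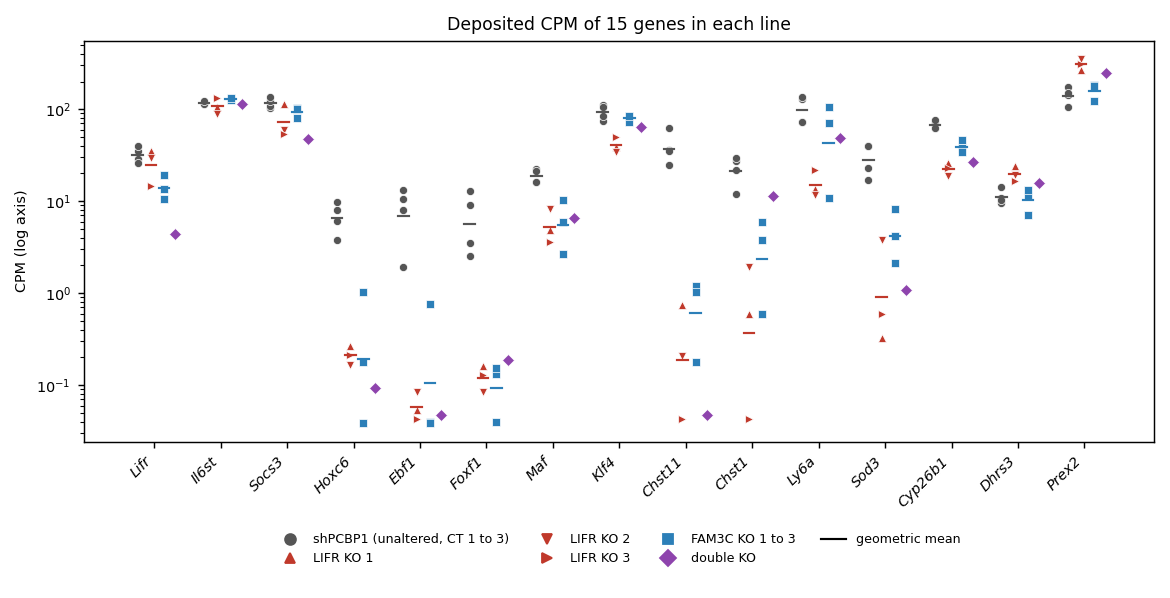
Deposited CPM (log axis) of 15 genes in the 4 shPCBP1 lines, LIFR KO clones 1 to 3, FAM3C KO clones 1 to 3 and the double KO, with the geometric mean of each group as a bar. For Hoxc6, Ebf1, Foxf1 and Chst11 every LIFR KO clone is below 1 CPM and every shPCBP1 line at 1.93 CPM or more, while Lifr, Il6st and Socs3 overlap between the groups, and Prex2 and Dhrs3 are higher in the LIFR KO clones.

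The largest log2 difference among the genes past the threshold was that of a sulfotransferase. Chst11 (ENSMUSG00000034612, chromosome 10, 82985498 to 83195900, plus strand) adds sulfate to the 4 position of the galactosamine in chondroitin. Its levels were 0.751, 0.208 and 0.0429 CPM in LIFR KO clones 1 to 3, the last being the lowest value of that library. The unaltered line held 24.5 CPM and CT clones 1 to 3 held 35.7, 62.4 and 34.8 CPM (log2 fold change -6.8 ± 0.561 SE, adjusted p = 0.0053, limma, and 0.00971 after GC correction). Chst11 and Hoxc6 stayed past the threshold in each of the 19 alternatives tried, with adjusted p of at most 0.0698 and 0.0675. Chst1 (chromosome 2, 92599707 to 92615250), which sulfates keratan, was at 0.59, 1.91 and 0.0429 CPM against 12, 27.1, 29.8 and 21.8 CPM (log2 fold change -5.21 ± 0.775 SE, adjusted p = 0.0605, and 0.119 after GC correction). Again no clone reached any line.

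These were the only 2 of 39 tested genes of proteoglycan sulfation and glycosaminoglycan synthesis to pass, and on both scales 4 members lay below the lines in all clones (10.3%) and 2 above (5.13%). Hs3st3b1, a heparan sulfate 3-O-sulfotransferase, was at 6.33, 4.37 and 4.97 CPM against 8.44 to 28.4 CPM (adjusted p = 0.111). Ext2, a polymerase of heparan sulfate chains, was at 52.7, 33.1 and 33.7 CPM against 55.1 to 63.7 CPM (adjusted p = 0.135). Dsel, an epimerase of dermatan sulfate, lay the other way at 29.2, 57.1 and 36.8 CPM against 12.9 to 21.6 CPM (adjusted p = 0.109). The list as a whole had a median log2 fold change of -0.239, which became -0.0341 after GC correction. Among 34 mucin-type and N-glycan branching enzymes none passed, and 3 lay above the lines on both scales (8.82%). Gcnt1, which starts core 2 branches, was at 29.1, 56.6 and 31.4 CPM against 7.83 to 18.3 CPM (adjusted p = 0.109). It is on distal chromosome 19, but clone 3, without that shift, was also above every line.

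Among the other lower genes, Ly6a (chromosome 15, 74994877 to 74998031, minus strand), which encodes the progenitor surface antigen Sca-1, was at 13.6, 11.8 and 21.6 CPM in LIFR KO and at 73.1, 72.1, 130 and 137 CPM in the lines, a 6.47-fold difference of geometric means (log2 fold change -2.69 ± 0.3 SE, adjusted p = 0.0231, limma, and 0.0317 after GC correction). Ly6c1, its neighbour in the same family, was at 15.1, 14.6 and 20.7 CPM against 41.8 to 61.9 CPM (adjusted p = 0.0245, and 0.0365 after GC correction). The Ly6 genes are close copies, and how reads shared between them were counted is not given in the sources used here. Both lie on distal chromosome 15, but clone 3, without the shift, was also below every line for both. How many cells expressed a gene and how much each held cannot be told apart in bulk RNA. Klf4, a pluripotency factor, was the other of 22 stem and progenitor markers to pass.

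Sod3 (chromosome 5, 52363791 to 52371418), the extracellular superoxide dismutase that binds heparan sulfate, was at 0.322, 3.74 and 0.6 CPM in LIFR KO against 23, 39.5, 16.9 and 39.9 CPM (log2 fold change -4.75 ± 0.691 SE, adjusted p = 0.0605, limma, and 0.12 after GC correction). Heg1 (chromosome 16, 33684370 to 33771576), a membrane protein of endothelial junctions, was at 1.13, 0.707 and 0.943 CPM against 3.28 to 5.74 CPM (adjusted p = 0.0384, and 0.0365 after GC correction). For both genes clone 1, which lacks the GC shift, was also below every line. Sema3f, a guidance ligand that acts through neuropilin 2, was at 13.9, 7.49 and 8.23 CPM against 24.3 to 30.7 CPM (adjusted p = 0.0605, and 0.0365 after GC correction). Mmp28, an epithelial metalloproteinase, was at 2.5, 1.45 and 4.12 CPM against 8.69 to 15.2 CPM (adjusted p = 0.0617, which became 0.175 after GC correction and no longer passed). Enpep, a cell surface aminopeptidase, was at 0.0536, 0.125 and 0.3 CPM against 0.981 to 2.06 CPM (adjusted p = 0.0605, and 0.0625 after GC correction). Mfge8, a milk fat globule protein that bridges phagocytes to dying cells, was at 67.4, 47.2 and 57.6 CPM against 99.7 to 119 CPM (adjusted p = 0.0605, and 0.201 after GC correction).

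Ion channel, carrier and intracellular signalling genes were also among those that passed. Cacna1g, a T-type calcium channel, fell to 3.86, 1.25 and 3.39 CPM from 15.4 to 18.5 CPM (log2 fold change -2.66 ± 0.345 SE, adjusted p = 0.0372, limma, and 0.0392 after GC correction). Ppp1r1b, an inhibitor of protein phosphatase 1 in cells that respond to dopamine, fell to 0.912, 0.333 and 0.557 CPM from 4.07 to 4.5 CPM (adjusted p = 0.0231, and 0.0186 after GC correction). Its 4 control lines were nearly equal, so that the gap was much wider than the spread. Slc25a48, a carrier of the inner mitochondrial membrane, was at 0.0858 to 0.125 CPM against 1.9 to 3.48 CPM (adjusted p = 0.0053, and 0.0186 after GC correction). Nav3, which binds microtubules, was at 0.0416 to 0.129 CPM against 0.873 to 5.33 CPM (adjusted p = 0.0534, and 0.057 after GC correction). Dok7, an adaptor of the muscle receptor kinase, was at 0.0858 to 0.125 CPM against 0.873 to 2.26 CPM (adjusted p = 0.0534), and this call was lost after GC correction (0.161). Rhbdl2, an intramembrane protease, was at 0.374 to 0.386 CPM against 1.75 to 3.31 CPM (adjusted p = 0.0372, and 0.0392 after GC correction). P4ha2, a collagen prolyl hydroxylase, was at 2.9, 3.54 and 3.95 CPM against 8.61 to 12.6 CPM (adjusted p = 0.0372), and did not pass after GC correction (0.131). Smaller differences that passed were those of Tspo, Cox14, Sun2, Ndufa6, Anxa8, Klc4 and Slc7a4, with log2 fold changes of -1.51 to -0.78, and of these only Cox14 passed after GC correction. Tspo, Cox14, Sun2 and Ndufa6 lie on distal chromosome 15.

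Cyp26b1 (ENSMUSG00000063415, chromosome 6, 84571414 to 84593908, minus strand), which breaks down retinoic acid, was at 25.7, 18.7 and 23.2 CPM in LIFR KO against 62.4, 71.9, 62.1 and 76.3 CPM, a 3.03-fold difference (log2 fold change -1.6 ± 0.146 SE, adjusted p = 0.00832, limma). It also passed after GC correction (-1.11, adjusted p = 0.0392), and clone 1, without the GC shift, stood at -1.4. Dhrs3 (chromosome 4, 144892827 to 144928209), which reduces retinaldehyde back to retinol, was at 24.4, 19.3 and 16.4 CPM against 10.9, 9.57, 14.3 and 10.4 CPM. It did not pass on the deposited scale (log2 fold change 0.82, adjusted p = 0.111) and passed after GC correction (1.11, adjusted p = 0.042). Aldh1a1, which makes retinoic acid, was at 282, 307 and 217 CPM against 128 to 169 CPM without passing (adjusted p = 0.0862), and lies on distal chromosome 19, although clone 3, which lacks that shift, was also above every line. These 3 genes, which all act on retinoids, were put side by side after their values were seen, and no list of such genes was tested.

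Prex2 (chromosome 1, 10993465 to 11303681), an exchange factor for Rac, was the only gene to pass as higher on the deposited scale (0.00794% of tested genes). It was at 266, 352 and 310 CPM in LIFR KO and at 143, 173, 107 and 149 CPM in the lines, a 2.18-fold difference (log2 fold change 1.12 ± 0.177 SE, adjusted p = 0.0659, limma, and 0.106 after GC correction). After GC correction 5 other genes passed as higher. Ric1, which takes part in Rab6 activation at the Golgi, was at 125, 131 and 143 CPM against 66 to 92.5 CPM (adjusted p = 0.0365 after correction). Zfp109, a zinc finger gene, was at 10.2, 8.69 and 8.71 CPM against 3.68 to 5.43 CPM (adjusted p = 0.0471). Gnaq (adjusted p = 0.0662), Epn2 (0.0365) and Dhrs3 were the others. Ric1 and Gnaq lie on distal chromosome 19, and clone 3, at 143 and 91.9 CPM, was above every line for both. Ptprd, a receptor phosphatase, stood at 17.2, 16.3 and 17.9 CPM in the clones but anywhere from 0.103 to 8.36 CPM in the lines, and its log2 difference of 3.61 did not pass (adjusted p = 0.152).

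The LIF receptor pathway itself had no gene past the threshold. Of 9 tested receptors and ligands of the IL-6 family none passed (limma), and of 26 JAK-STAT kinases, STATs and inhibitors none passed either. Il6st, the gp130 chain, was at 105, 89.1 and 133 CPM in LIFR KO and 114 to 124 CPM in shPCBP1 (log2 fold change -0.13, adjusted p = 0.527). Stat3 was at 67.2, 48.3 and 44.9 CPM against 62.6 to 68.5 CPM, and its log2 fold change of -0.3 became 0 after GC correction. Socs3, the feedback inhibitor and a direct STAT3 target, was at 114, 59.9 and 54.2 CPM against 104 to 136 CPM. Clone 1 lay inside the control range, and after GC correction the difference was -0.13 (adjusted p = 0.563). Il6ra, the IL-6 receptor, was at 10.7, 10.2 and 9.56 CPM against 13 to 16.5 CPM (adjusted p = 0.141). Clcf1, a ligand that acts through LIFR, was at 144, 80.8 and 98.4 CPM against 149 to 164 CPM (adjusted p = 0.154). Socs2 was at 31.9, 32.9 and 19.5 CPM against 13 to 18.9 CPM (adjusted p = 0.125). Socs1 was at 1.39, 0.707 and 0.6 CPM against 1.51 to 2.5 CPM (adjusted p = 0.14). It was the only JAK-STAT member below the lines in all clones on both scales (3.85%, against 4.68% of all tested genes).

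Among 28 genes known to respond to STAT3, 1 passed as lower. Klf4, which LIF maintains in embryonic stem cells, was at 38.6, 34.2 and 50.2 CPM against 73.7, 85.1, 112 and 105 CPM (log2 fold change -1.19 ± 0.188 SE, adjusted p = 0.0659, limma). After GC correction it was at -0.79 (adjusted p = 0.228), and the clones no longer all lay below the lines. Cebpd, a STAT3 target of the involuting mammary gland, was at 4.57, 4.46 and 3.56 CPM against 5.65 to 8.05 CPM (adjusted p = 0.133). Pim3 was at 120, 52.7 and 53.9 CPM against 129 to 174 CPM (adjusted p = 0.12). It was the only list member below the lines in all clones on both scales (3.57%, against 4.68% of all tested genes). Pim3 lies on distal chromosome 15, and its GC-corrected log2 difference in clone 1 was -0.31, against -0.45 for that segment as a whole. Clone 3, without that shift, was also below every line. Vegfa was at 128, 86.4 and 89.1 CPM against 123 to 178 CPM, with clone 1 inside the range. The median of the list was -0.608, against -0.163 for all genes, and -0.131 after GC correction, while in clone 1 alone it was -0.111.

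The canonical STAT motif, TTCNNNGAA, was looked for in RefSeq promoters (GRCm38.p6, 250 bases before to 50 after each start), since STAT3 is the main factor below LIFR. Of the 35 genes past the threshold 20 had a promoter in the table, and 2 of these genes held the motif, in 2 of 24 promoters (8.33%). Over all 32851 promoters the share was 8.3%, and over the promoters of tested genes 6.86%. The motif reads the same on both strands. Its letters are in capitals in the stretches that follow, taken from Enpep (chr3:129332876-129332896, minus strand) and Heg1 (chr16:33684329-33684349, plus strand).
Enpep: agtgatTTCTCTGAAgctgac
Heg1: cgggggTTCCGTGAActcacc
Both begin upstream of the start, at -141 in Enpep and -131 in Heg1.

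Markers of epithelial and mesenchymal state did not pass. Of 20 epithelial markers tested none passed (limma), with 1, Grhl1, below the lines in all clones on both scales (5%). The keratins of simple epithelium were lower in CPM: Krt8 was at 420, 218 and 470 CPM against 582 to 818 CPM (adjusted p = 0.126), Krt18 at 656, 402 and 730 CPM against 823 to 1040 CPM (adjusted p = 0.136) and Krt19 at 673, 325 and 461 CPM against 715 to 1010 CPM (adjusted p = 0.141). For all 3 the clones and the lines overlapped after GC correction. Krt8 and Krt18 lie on distal chromosome 15, where clones 1 and 2 were low as a whole, but clone 3 was also below every line in CPM. Cdh1 was nearly level, at 344, 268 and 289 CPM against 292 to 346 CPM (log2 fold change -0.04, adjusted p = 0.838). Krt7 lay the other way, at 2.63, 1.95 and 3.56 CPM against 1.07 to 3.18 CPM (0.39, adjusted p = 0.507). Of 25 mesenchymal markers none passed, and 2 (8%), Vim and Mmp14, lay below in all clones on both scales. Itga5, the fibronectin receptor chain, was at 22.7, 16.1 and 27 CPM against 37.7 to 55.9 CPM (adjusted p = 0.0823). It is on distal chromosome 15, but clone 3, without that shift, was also below every line on the deposited scale. Mmp14, a membrane-bound collagenase, was at 37.1, 26.3 and 25 CPM against 45.2 to 53.8 CPM (adjusted p = 0.0951). Col5a1 was at 20.1 CPM in clone 1, inside the range of 16.2 to 46.3 CPM, and at 1.16 and 1.24 CPM in clones 2 and 3. Cdh2 lay the other way, at 148, 158 and 346 CPM against 109 to 201 CPM (log2 fold change 0.33, adjusted p = 0.498). Col1a1 was level (0.03).

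The metalloproteinases and plasminogen system had 1 of 30 members past the threshold as deposited, Mmp28, and none after GC correction, with 2 below on both scales (6.67%) and 1 above (3.33%). Mmp2, a gelatinase, was at 0.376, 0.541 and 0.686 CPM against 1.07 to 12.8 CPM (adjusted p = 0.119, and 0.258 after GC correction). It lies in the chromosome 8 segment that is low in clone 3, but clones 1 and 2, without that shift, held less of it. Of 40 genes of the TGF-β and BMP pathway none passed on the deposited scale, and 4 lay below on both scales (10%). Gdf15, a stress-induced member of that family, was at 17.2, 6.41 and 7.93 CPM against 29.4 to 33.8 CPM. It just missed the threshold at first (adjusted p = 0.0745) and passed after GC correction (log2 fold change -1.02 ± 0.108 SE, adjusted p = 0.0271). Id1, the usual BMP target, was at 125, 78.2 and 96.1 CPM against 165 to 197 CPM (adjusted p = 0.0848, and 0.12). Integrins and laminins (34 tested), the Wnt pathway (29), interferon response and antigen presentation (33), cell cycle genes (41) and the PCBP family with its translational targets (9) had no member past the threshold. Among immediate early genes (28) Klf4 was the only one. Itga2, the collagen receptor chain, was above the lines in all clones at 128, 175 and 253 CPM against 53 to 115 CPM (adjusted p = 0.126).

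**Figure D4:**
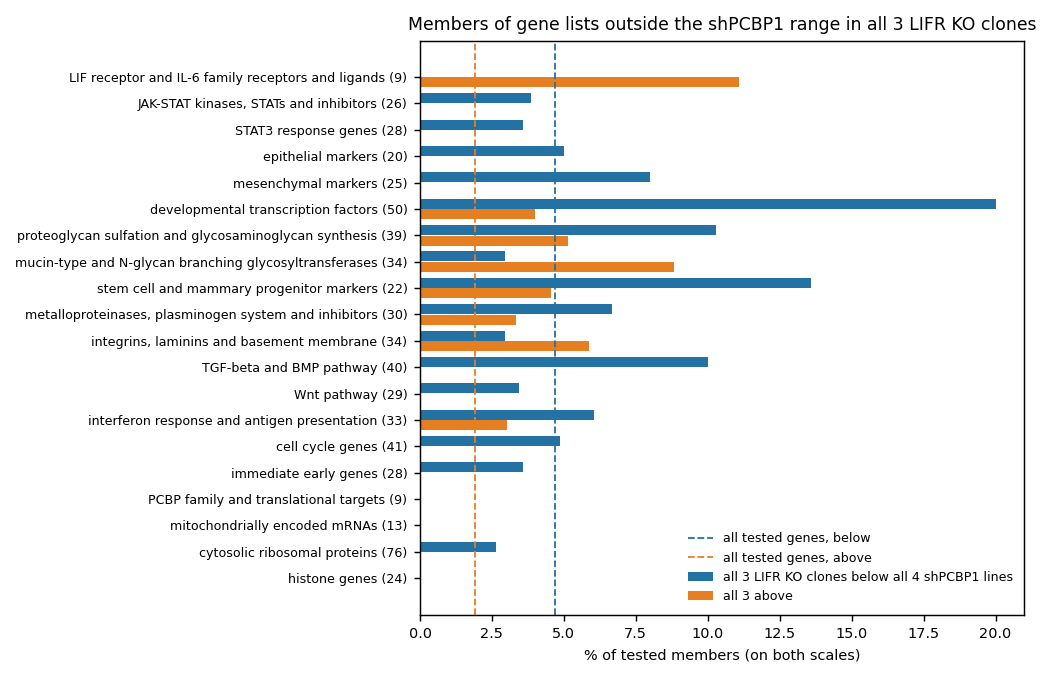
Share of the tested members of each gene list (number tested in brackets) for which all 3 LIFR KO clones lie below, or above, all 4 shPCBP1 lines on the deposited and the GC-corrected scale. The dashed lines give the shares over all tested genes, 4.68% below and 1.92% above. Developmental transcription factors have 20% of 50 members below.

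Some lists differed between clone 1 and the other clones. Mitochondrially encoded mRNAs (13 genes) had a median log2 difference of 0.0461 in clone 1 and 1.04 in clones 2 and 3, and took 2.72%, 5.09% and 5.21% of all CPM in the clones and 2.47% to 2.96% in the lines. Histone genes (24 genes) stood at 0.217 in clone 1 and -1.68 in clones 2 and 3. Cytosolic ribosomal protein genes (76 genes) stood at 0.109 and -0.378. None of these genes passed the threshold, and their medians moved to 0.186, -0.497 and 0.00178 after GC correction. Il11, a cytokine that signals through gp130, divided the clones in another way, at 31.4 and 23.5 CPM in clones 1 and 2 and at 1.5 CPM in clone 3, against 0.928 to 4.49 CPM in the lines. Map2, a microtubule protein of neurons, was at 0.215 and 0.208 CPM in clones 1 and 2 and at 33 CPM in clone 3, with 1.51 to 9.54 CPM in the lines and 12 to 27.8 CPM in FAM3C KO. Neither gene passed (adjusted p = 0.171 and 0.551, limma).

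The FAM3C KO clones were set beside the LIFR KO clones, with the direct difference as the test, since each group was compared with the same shPCBP1 lines. After GC correction 63 of 12576 genes differed between the knockouts (0.501%), 22 higher and 41 lower in LIFR KO. On the deposited scale 1018 of 12594 genes differed (8.08%). Of the 35 genes that had passed against shPCBP1, 2 differed after GC correction, Heg1 and Cox14, and 18 on the deposited scale. Heg1 was at 6.38, 4.27 and 12.5 CPM in FAM3C KO and 14.6 CPM in the double KO, so that only the LIFR KO clones were below the shPCBP1 lines (difference -2.62 on the log2 scale, adjusted p = 0.0539, limma). Dhrs3 was at 11.3, 7.16 and 13.3 CPM in FAM3C KO, where it overlapped with shPCBP1 (difference 1.2, adjusted p = 0.065). Kcnj2, an inward rectifier potassium channel, was at 0.376, 0.0416 and 0.343 CPM in LIFR KO, 1.41 to 3.33 CPM in shPCBP1 and 1.24 to 2.73 CPM in FAM3C KO (difference -2.97, adjusted p = 0.0678).

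Several of the leading genes were also low in FAM3C KO. Chst11 was at 0.177, 1.2 and 1.04 CPM in FAM3C KO and at 0.0468 CPM, the lowest value of that library, in the double KO. Its difference from LIFR KO was -1.01 (adjusted p = 0.414 after GC correction, limma). Hoxc6 was at 0.177, 1.04 and 0.0384 CPM and Foxf1 at 0.133, 0.04 and 0.154 CPM, with differences of 0.09 and 0.47 (adjusted p = 0.95 and 0.647). Cyp26b1 was at 37.6, 46.5 and 34 CPM, above the LIFR KO clones (18.7 to 25.7 CPM) and below the lines (62.1 to 76.3 CPM), and the difference passed on the deposited scale (-0.8, adjusted p = 0.0374) but not after GC correction (-0.36, adjusted p = 0.249). Ly6a was at 106, 10.8 and 70.5 CPM, so that FAM3C KO clone 2 lay with the LIFR KO clones and the others with the lines (difference -1.45, adjusted p = 0.263, and -1.51, adjusted p = 0.176 on the deposited scale). A p above the threshold does not show that the knockouts were alike.

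Of the 63 genes that differed directly, Il33, Cth and Rab30 were picked after their values were seen. Il33, an alarmin of the IL-1 family, was at 65.7, 93.1 and 74.7 CPM in LIFR KO, 41.3 to 53.1 CPM in shPCBP1 and 23.8, 20.5 and 25.9 CPM in FAM3C KO (difference 1.53, adjusted p = 0.000955, limma, and 0.00478 on the deposited scale). It lies on distal chromosome 19, but clone 3, without that shift, was also above every shPCBP1 line. The double KO, which lacks LIFR as well, held 28.2 CPM of Il33, below every shPCBP1 line. Cth, which makes cysteine from cystathionine, was at 6.92, 5.66 and 8.41 CPM in LIFR KO and 7.06 to 10.3 CPM in shPCBP1, but at 27.6, 20 and 26.6 CPM in FAM3C KO and 26.7 CPM in the double KO (difference -1.92, adjusted p = 0.0172). Rab30, a Golgi GTPase, was at 3.86, 5.03 and 4.67 CPM, 3.6 to 13.5 CPM and 47.2, 14.4 and 54.9 CPM in the same order (difference -3.24, adjusted p = 0.065). For Cth and Rab30 the LIFR KO clones overlapped with shPCBP1, and it was FAM3C KO that stood apart.

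The second dataset, in which 2 shPCBP1 samples were compared with 2 NMuMG samples without the knockdown, came from other samples than the LIFR KO clones and their controls. In it 9123 of 11384 genes passed (80.1%, limma), 42.1% as higher in shPCBP1, so the size of a difference says more than its call. Of the 34 genes lower in LIFR KO, 27 were tested there. Of these, 16 were higher in shPCBP1 (59.3%), 12 of them by at least 2-fold (44.4%), and 8 were lower (29.6%). Over the 11042 genes tested in both datasets the shares were 42.5%, 7.6% and 37.5%. Genes such as Chst11 and Foxf1 reached the 0.5 CPM filter only through the shPCBP1 lines. Expression in shPCBP1 was thus partly built into the choice of genes, and the shares were not tested. Of the 528 genes below in all clones on both scales, 46.2% were higher and 13.3% higher by at least 2-fold, and of the 206 genes above in all clones 31.6% and 5.34%.

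Several of the genes lower in LIFR KO were nearly silent in NMuMG cells before the knockdown. Chst11 was at the lowest value and 0.019 CPM in NMuMG and at 28.2 and 28.1 CPM in shPCBP1 (log2 fold change 8.02). Ly6a went from 0.0532 and 0.0755 CPM to 37.5 and 35.2 CPM. Foxf1, Heg1 and Chst1 were likewise at 3.4 and 3.38, 1.99 and 1.83, and 10.5 and 9.85 CPM in shPCBP1, with no NMuMG sample above 0.159 CPM. Cyp26b1 was not silent in NMuMG but was also higher with the knockdown, going from 2.67 and 2.47 CPM to 32 and 34.1 CPM. Other genes went the opposite way. Ebf1 was at 2.81 and 2.45 CPM in NMuMG and 0.609 and 0.721 CPM in shPCBP1 (log2 fold change -1.84), and Maf at 21.4 and 22.4 CPM and 4.78 and 4.16 CPM, so both were lower with the knockdown and lower again in LIFR KO within the first dataset. Dhrs3, higher in LIFR KO after GC correction, was at 27.6 and 27.9 CPM in NMuMG and 8.51 and 9.24 CPM in shPCBP1. Levels of the same shPCBP1 state differed between the datasets, which were normalized separately, so only differences within each are compared.

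**Figure D5:**
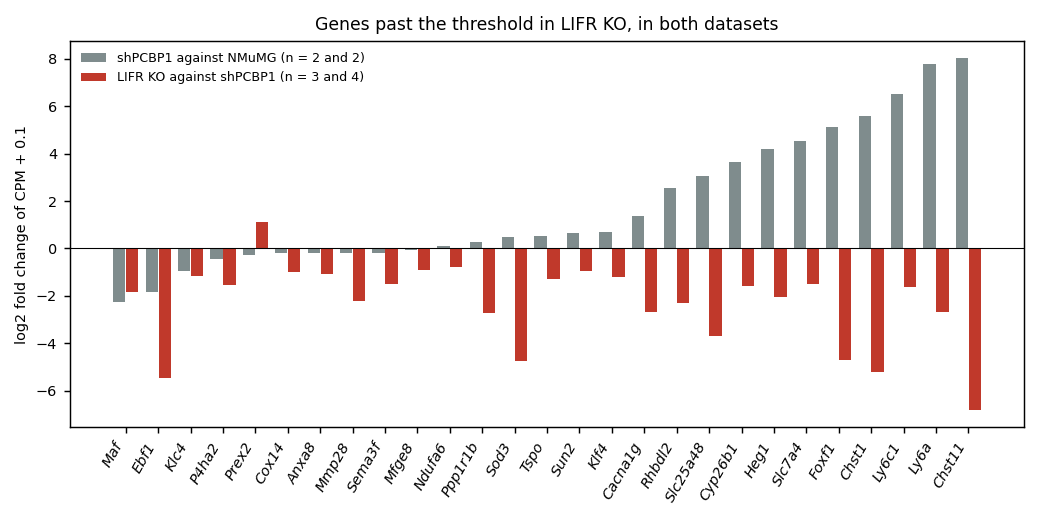
Log2 fold changes (CPM + 0.1) of 27 genes past the threshold in LIFR KO that were also tested in the second dataset, for shPCBP1 against NMuMG (grey, n = 2 and 2) and LIFR KO against shPCBP1 (red, n = 3 and 4). Chst11, Ly6a, Ly6c1, Chst1 and Foxf1 are raised in shPCBP1 and lower in LIFR KO, while Ebf1 and Maf are lower in both comparisons.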

How the data were processed

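Ribosomal RNA depleted, directional, paired-end RNA-Seq libraries were made from 1 RNA sample per line. Per the labels and the study's methods, reads were trimmed and aligned to GRCm38 with Bowtie2 in Partek Flow. The authors deposited CPM values, in which genes without reads appear to carry the lowest value of their library (first dataset) or 0.0001 (second dataset). They also deposited group means and a ratio (fold change) for the second dataset, and neither was used. Gene starts listed with the first dataset do not match GRCm38, so coordinates came from GENCODE M21 (GRCm38) by gene identifier. No column of per-sample values was left out. The counting method and its use of strand are not given in the sources used here.

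Values were taken as log2(CPM + 0.1), which makes changes of low genes look smaller than they are. The 2 groups alone were fitted with limma 3.58.1 (R 4.3.3, intensity trend, genes averaging 0.5 CPM or more), and a Benjamini-Hochberg adjusted p below 0.07 counted as passing. The GC correction subtracted a loess curve (span 0.3) of each library's deviation from the shPCBP1 mean on the GC content of the longest transcript. FAM3C KO was compared in a fit of 3 groups. If the lowest value of a library is taken as a step of 1 read, the 7 libraries held 16031859 to 46901675 reads. Low values were not reliably whole multiples of that step, so no count test was run, and the depth of the second dataset is unknown. An exact two-sided permutation test over the 35 splits of 7 samples cannot go below p = 0.0571 and was not used for calls. On simulated data for LIFR KO against shPCBP1 (12576 genes), 2 of 3 LIFR KO libraries were given a linear trend on GC content. Without the GC correction 187 of 200 changed genes were found (98 of 100 at a log2 change of 3, 89 of 100 at 1.5, 18 false calls). With it 192 were found (98 and 94, 10 false calls). The simulated libraries were independent and had the spread of the shPCBP1 lines, and only genes at about 1 CPM or more were changed. They lacked the segment shifts that the real clones shared, so these rates do not carry over to the real clones.

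The members and gene lists were chosen with earlier results of these data known. The genes named were Lifr, Il6st, Stat3, Socs3, Fam3c, Pcbp1, Twist1, Twist2 and Mmp2, the genes with the widest GC-corrected gap between the groups (12 in each direction), the 6 largest changes past the threshold in each direction, and up to 4 members of each list by p. Not every one is described, and some genes past the threshold are not reported here. Other genes past the threshold, and the chromosome segments, were named after their values were seen. Figures were drawn with matplotlib 3.10.9.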

Additional observations from a re-analysis of the deposited data

Results flagged for a closer look

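Several named genes had 1 shPCBP1 line apart from the other 3, beyond Dixon's 95% critical value for 4 samples. These were Anxa8 in the unaltered line (61.2 CPM, the lowest), and, in CT clone 2, Fry (0.889 CPM, the lowest), Il6ra (16.5 CPM, the highest) and Stat6 (91.7 CPM, the highest). They make 4 of 98 genes examined (4.08%), and chance flags about 1 in 20 groups. Stat6 lies in the last window of chromosome 10 (127538161 to 128960988, 49 genes), where CT clone 2 stood at 0.458 as a whole. The other shPCBP1 lines stood at -0.092, -0.128 and -0.231 there.

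Among the 98 named genes examined, for 9 the difference between LIFR KO and FAM3C KO itself passed the threshold both as deposited and after GC correction (limma, adjusted p under 0.07). On the log2 scale, LIFR KO minus FAM3C KO was -2.62 for Heg1, -2.97 for Kcnj2, 1.2 for Dhrs3, -0.41 for Cox14, -0.88 for Vegfa, 1.53 for Il33, -1.92 for Cth, 2.37 for Lamb1 and -3.24 for Rab30. Il33, Cth, Lamb1 and Rab30 were picked after their values were seen, and over all tested genes 63 differed after GC correction and 1018 as deposited. Lamb1, a laminin chain, was at 23.3, 9.94 and 7.25 CPM in LIFR KO, 11.1 to 12.8 CPM in shPCBP1 and 2.26, 5.52 and 1.54 CPM in FAM3C KO.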

How the results depend on the processing

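The count of genes past the threshold between LIFR KO and shPCBP1 went from 35 to 20 with quantile normalization, 11 with a mean of at least 2 CPM, 846 with 3 groups fitted together and 16 at an adjusted p under 0.05. Alternatives chosen after seeing the data gave 14 without the genes of the 5 chromosome segments, 3978 with clones 1 and 2 averaged, and 7 with that and the GC correction. Leaving out 1 line gave 4 to 6920 genes, the highest without LIFR KO clone 1, 360 without clone 3 and 11 without clone 2. With the replicate number as a block the count was 19, and 7 with the block and the GC correction. The numbers do not pair the samples, since same-numbered lines did not deviate together (correlations -0.08, -0.03 and -0.02). The causes of these shifts were not tested. Genes below in all clones numbered 1661, and 824, 1095 and 979 with the GC correction, median-ratio scaling and quantile normalization (1801 to 5514 without 1 line, the highest without LIFR KO clone 1). Those above numbered 500, and 785, 1078 and 1190 (549 to 2491), so with quantile normalization more genes lay above than below. The GC correction took clones 2 and 3 from 6929 to 739 genes and LIFR KO against FAM3C KO from 1018 to 63. List members past the threshold went from 11 to 7 with the GC correction, 7 with median-ratio scaling and 5 with a mean of at least 2 CPM. No named gene past the threshold changed sign in the alternatives run, but some that did not pass did, such as Pcbp1 (-0.43 to 0.1 with the GC correction), Il6st (-0.13 to 0.02 with median-ratio scaling) and Lifr (-0.37 to 0.01 without LIFR KO clone 3). A count-based alternative was not run. Genes at or near the lowest values in the LIFR KO clones, such as Ebf1, Hoxc5 and Foxf1, are limited by depth in the size of their change.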
